A study of Mus musculus with 12 samples.

Results

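The 32 genes described here carry glucose into the cell, break it down to pyruvate and lactate, and divert part of it into serine and one-carbon units. They were listed by gene symbol, and each of the 32 was found among the 32245 symbols of the count tables. By role they fall into glucose uptake (2 genes), upper glycolysis (8), lower glycolysis (9), pyruvate and lactate handling (6), serine synthesis (3) and one-carbon enzymes (4). They were listed by function, with earlier results of these data known. One symbol, Aldoa, stood for 2 features, and its tests used the one with more UMIs (1022173 in somatic cells, against 69 in the other).

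Transcripts were counted by droplet single-cell RNA sequencing (10x Genomics, 3′ tags counted by unique molecular identifiers, UMIs) of fetal mouse gonads at E12, staged at 23 ± 3 tail somites. The 12 libraries formed 6 groups of 2, XX and XY of wild type (WT), of -KTS KO and of +KTS KO. In -KTS KO both Wt1 alleles cannot make the splice variant without the KTS tripeptide, and in +KTS KO neither allele makes the variant with it. All embryos came from a mixed B6CBAF1/JRj background, and the mutant alleles were present in every cell, germ cells included. WT and +KTS KO libraries came from single embryos, whereas most -KTS KO libraries pooled several. The 3′ tags do not separate the Wt1 splice variants, so the level of Wt1 does not check the genotype labels.

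The 12 libraries held 108111924 to 147968666 UMIs. After filtering, 77000 cells were kept, of which 65785 were classed as somatic, 7088 germ and 4127 of other kinds. The somatic class took every cell outside the germ class and the named other kinds, unnamed clusters included. UMIs were summed over the somatic cells (57408293 to 99869834 UMIs a library) and over the germ cells (from 8461622 to 38569121) of each library, so the library was the unit of every test. Classes were named by markers, Dazl among those of germ cells, so the levels given here describe the classes and do not test their names. Wt1 lay between 170 and 305 counts for every 1e6 UMIs (CPM) in somatic sums against 1.63 to 12.5 in germ sums, and Dazl lay between 119 and 670 CPM in germ sums against 0.106 to 2.46 in somatic sums. Libraries shared 2 to 31 barcodes with each other. The supporting cells of XY +KTS KO replicate 1 lay mostly in a cluster of their own (89.1%), whereas those of XY +KTS KO replicate 2 lay mostly in the cluster that also held the XX +KTS KO supporting cells (82.9%). The embryo of that replicate 1 had more tail somites than that of replicate 2. Of the somatic cells of XY +KTS KO replicate 2, 11.2% lay in clusters with little Nr5a1 and Gata4 (under 15 CPM together), against at most 0.0525% in each other library. They include a cluster led by muscle genes, among them Myog and Myod1. In XX -KTS KO replicate 2, 47.3% of the germ cells and 23.9% of the somatic cells lay in clusters of shallow cells. Of the somatic cells, this share was 13.6% in XY +KTS KO replicate 1 and at most 4.69% in each other library.

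Glycolysis turns a molecule of glucose into pyruvate in the cytosol. Hexokinases trap glucose, phosphofructokinases set the pace of the upper steps, the lower steps recover ATP and NADH, and lactate dehydrogenase converts pyruvate to lactate while regenerating NAD. A branch at 3-phosphoglycerate, opened by Phgdh and completed by Psat1 and Psph, makes serine, which serine hydroxymethyltransferases turn into glycine and folate-bound one-carbon units for nucleotide synthesis. In the fetal gonad, supporting cells become Sertoli cells in XY and pre-granulosa cells in XX embryos, interstitial cells lie between the cords, and the germ cells that colonize the gonad are known to differ from their somatic neighbours in fuel use.

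In the somatic sums, 7 of the 32 genes passed the test in XX -KTS KO against XX WT (adjusted p under 0.05, edgeR quasi-likelihood test, adjusted over all 17751 genes tested). That was 21.9% of the list beside 15.9% of all genes. One gene was higher (Pfkfb3, beside 6.57% of all genes higher) and 6 were lower (Hk1, Pfkp, Ldhb, Psat1, Phgdh and Pdk3, beside 9.35% lower). In XY -KTS KO against XY WT, 11 genes passed (34.4%, beside 23.4% of all genes), 2 higher and 9 lower (all genes 11.1% and 12.4%). In XX +KTS KO, 2 genes passed (6.25%, beside 4.83%), Hk1 higher and Phgdh lower (all genes 2.25% and 2.59%). In XY +KTS KO, 10 genes passed (31.2%, beside 12.1%), 2 higher and 8 lower (all genes 5.89% and 6.23%). Between XX WT and XY WT, 5 genes passed (15.6%, beside 13.1%), 1 higher and 4 lower in XX (all genes 6.25% and 6.81%). The median log2 fold change over the 32 genes was -0.07, -0.12, -0.05, -0.47 and -0.40 in these 5 comparisons in order, and the median of all genes lay between 0.00 and 0.05. The mutants of a sex share their WT libraries, so their comparisons are not independent of each other. In sums over cells of several kinds, fewer cells of a kind and less RNA per cell cannot be told apart. The Sertoli markers summed to 1388 to 1740 CPM in XY WT and to 20.6 to 225 CPM in the other groups, and the pre-granulosa markers to 969 to 978 CPM in XX WT and to 123 to 321 CPM elsewhere. The part of this change in cell makeup in the results was not tested by these sums.

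XX -KTS KO replicate 2 and XY +KTS KO replicate 1 were left out in turn, which moved the calls over all genes as well. Without XX -KTS KO replicate 2, the list gave 4 calls in XX -KTS KO (Pfkp, Hk1, Ldhb and Pdk3, beside 6.71% of all genes), 10 in XY -KTS KO (20.3%), 2 in XX +KTS KO (3.55%), 7 in XY +KTS KO (9.15%) and 4 between the sexes in WT (10.4%). Without XY +KTS KO replicate 1 these counts were 8 (19.4%), 12 (27.6%), 4 (7.25%), 3 (9.02%) and 11 (16.6%) in the same order. For the difference between the sexes in a mutant effect, which called 1 gene for each mutant with every library in, the first left-out library gave 0 for -KTS KO (0.684%) and 0 for +KTS KO (2.23%), and the second gave 2 (4.83%) and 1 (3.58%).

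**Figure D1:**
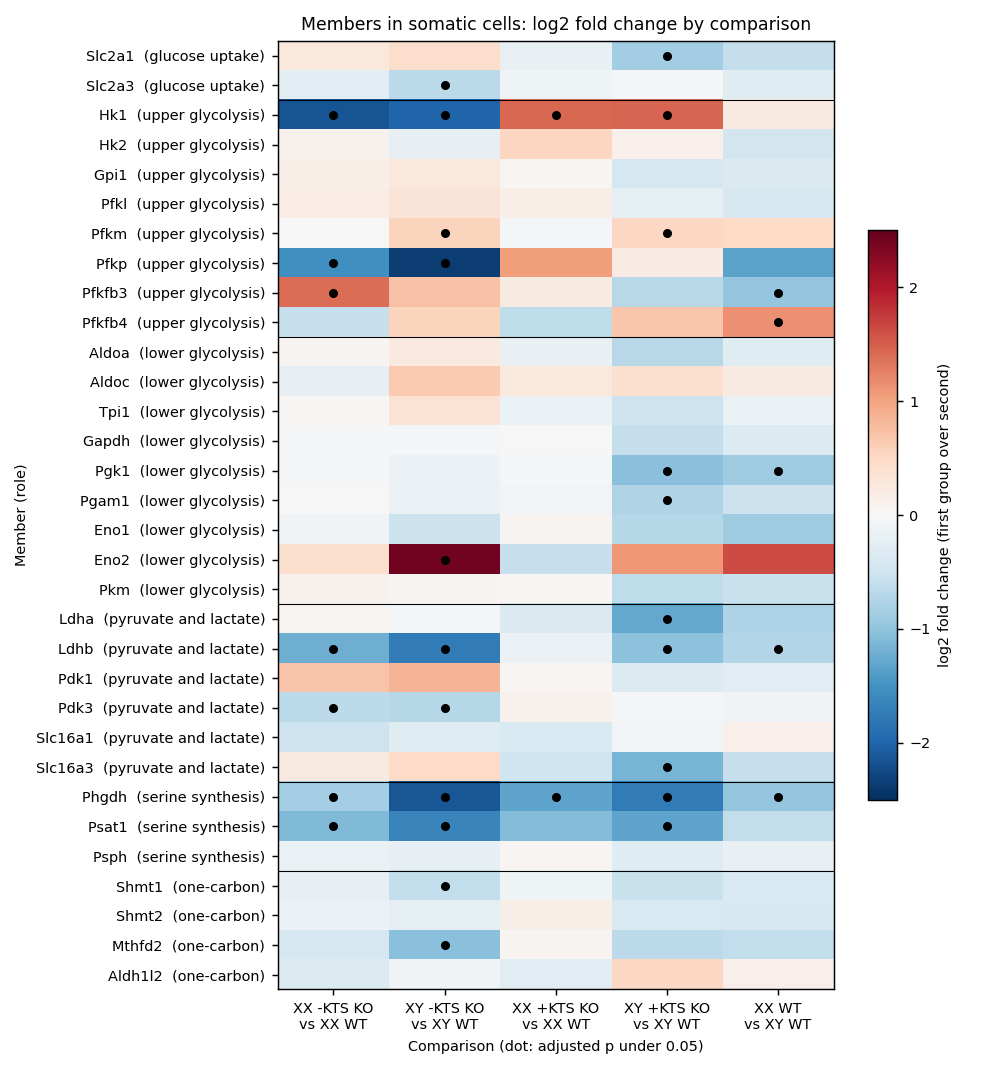
Log2 fold change (colour, -2.5 to 2.5) of the 32 genes (vertical axis, grouped by role) in the somatic sums for 5 comparisons (horizontal axis), with a dot where the adjusted p was under 0.05. Hk1 is lower in both -KTS KO comparisons and higher in both +KTS KO comparisons, and Phgdh is lower in all 4 mutant comparisons.

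Hk1, the housekeeping hexokinase that phosphorylates glucose at the mitochondrial surface, moved in opposite directions in the mutant lines. It stood at 26.6 and 31.5 CPM in the XX WT libraries (29.0 ± 3.49, mean ± SD, n = 2) and at 19.4 and 30.5 CPM in the XY WT libraries. In -KTS KO it stood at 6.87 and 6.19 CPM in XX and at 4.98 and 7.37 CPM in XY. In +KTS KO it stood at 81.4 and 76.5 CPM in XX and at 60.1 and 76.9 CPM in XY. Every -KTS KO library was thus below the lowest WT value and every +KTS KO library above the highest. Hk1 fell by 2.15 ± 0.25 (log2 fold change ± SE) in XX -KTS KO (adjusted p = 0.000814) and by 2.01 ± 0.25 in XY -KTS KO (adjusted p = 0.000578), about 4.44-fold and 4.04-fold. It rose by 1.44 ± 0.24 in XX +KTS KO (adjusted p = 0.0119) and by 1.46 ± 0.24 in XY +KTS KO (adjusted p = 0.00594), about 2.72-fold and 2.75-fold. The effects in XX and XY differed by -0.14 ± 0.34 for -KTS KO and by -0.02 ± 0.34 for +KTS KO, neither past the threshold (adjusted p = 0.896 and 0.988). When each library of the groups compared was left out in turn, the call held in all 4 fits for XX -KTS KO, XY -KTS KO and XY +KTS KO. In XX +KTS KO the value stayed between 1.33 and 1.57 and the call was lost in each of the 4 fits.

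The genes with the widest changes have promoters that can be read beside these values. Promoter windows of 300 bases (250 before to 50 after the annotated start, RefSeq, GRCm38.p6) were found for 30 of the 32 genes, 44 windows in all. They were searched on both strands for GCGTGGG, the core of sites bound by WT1 and EGR-type zinc fingers, and for ACGTG, the core of sites bound by hypoxia-inducible factors. The first was present in 4 of the 44 windows (9.09%, in Pfkp, Pdk3, Shmt1 and Aldoc), and in 5.04% of all 32851 windows of that length. The second was present in 20 of the 44 (45.5%, in 17 genes), and in 19.6% of all windows. A match describes letters only and is not a binding site. The following windows, read on the strand of the gene, show Hk1, which moved both ways, Pfkp, which fell in both -KTS KO groups, Ldha, whose window held the most ACGTG matches, and Phgdh, whose window held neither motif. Capitals mark either motif or its reverse complement. Where a match reads the same on both strands it was counted on each.
Hk1, chr10:62340372-62340671, minus strand: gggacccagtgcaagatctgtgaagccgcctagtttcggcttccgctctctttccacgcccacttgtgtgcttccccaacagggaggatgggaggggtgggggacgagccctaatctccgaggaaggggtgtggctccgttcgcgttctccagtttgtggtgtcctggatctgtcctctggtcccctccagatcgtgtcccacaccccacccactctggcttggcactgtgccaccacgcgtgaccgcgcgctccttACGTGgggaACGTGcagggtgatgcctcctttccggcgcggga
Pfkp, chr13:6648722-6649021, minus strand: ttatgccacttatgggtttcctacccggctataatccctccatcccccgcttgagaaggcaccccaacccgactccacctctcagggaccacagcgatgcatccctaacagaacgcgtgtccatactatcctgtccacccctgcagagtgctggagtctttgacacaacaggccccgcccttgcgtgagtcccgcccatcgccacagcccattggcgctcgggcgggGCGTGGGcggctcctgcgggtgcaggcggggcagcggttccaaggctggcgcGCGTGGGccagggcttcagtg
Ldha, chr7:46845554-46845853, plus strand: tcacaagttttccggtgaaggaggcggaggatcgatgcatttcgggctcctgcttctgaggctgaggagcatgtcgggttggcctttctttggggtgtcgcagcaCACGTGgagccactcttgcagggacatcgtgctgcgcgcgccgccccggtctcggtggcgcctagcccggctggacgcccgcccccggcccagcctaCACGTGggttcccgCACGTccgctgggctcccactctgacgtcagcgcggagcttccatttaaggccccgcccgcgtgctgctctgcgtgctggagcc
Phgdh, chr3:98339920-98340219, minus strand: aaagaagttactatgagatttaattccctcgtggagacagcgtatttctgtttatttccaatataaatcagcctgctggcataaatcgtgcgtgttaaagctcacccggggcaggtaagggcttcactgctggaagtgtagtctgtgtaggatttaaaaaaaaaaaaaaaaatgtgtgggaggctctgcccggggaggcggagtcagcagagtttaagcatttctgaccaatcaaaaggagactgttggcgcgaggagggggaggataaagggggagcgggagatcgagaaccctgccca

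The window of Hk1 is that of the inner of its 2 listed starts, and the outer window (start 62379859) held neither motif. Pfkp held 2 matches to GCGTGGG, and Pdk3, which fell in both -KTS KO groups, held 1 match to each motif. Ldhb, Phgdh, Shmt2 and Mthfd2 held none. Of the 4 genes with GCGTGGG, Pfkp and Pdk3 fell in -KTS KO in both sexes and Shmt1 in XY. Aldoc passed no test in the sums over all somatic cells. Within cell classes, read below, it was higher in -KTS KO in coelomic-epithelium-like cells of both sexes and in supporting-like cells of XY. Hk1, Ldhb, Phgdh and Psat1 fell in both -KTS KO groups, and Mthfd2 in XY, with no GCGTGGG in their windows. A link between the motif and the changes was not tested.

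Among the other genes of upper glycolysis, Pfkp, the platelet-type phosphofructokinase, was the lowest in -KTS KO relative to WT. It stood at 2.04 and 2.60 CPM in XX WT and at 0.441 and 1.20 CPM in XX -KTS KO. In XY it stood at 4.12 and 7.59 CPM in WT and at 0.913 and 1.34 CPM in -KTS KO. Mutant and WT libraries did not overlap in either sex. Pfkp fell by 1.53 ± 0.45 in XX (adjusted p = 0.0451) and by 2.37 ± 0.44 in XY (adjusted p = 0.00451). The XX call held in 1 of the 4 fits that left out a library, the one without XX -KTS KO replicate 2 (-2.39), and without XX -KTS KO replicate 1 the value was -0.95. Summed over all kept cells of each library, the XX value was 0.18, in the opposite direction. In XX +KTS KO the value was 1.04 ± 0.42 (adjusted p = 0.219), with 4.93 and 4.62 CPM. Pfkm, the muscle-type form, rose in XY, by 0.55 ± 0.15 in -KTS KO (adjusted p = 0.023) and by 0.52 ± 0.15 in +KTS KO (adjusted p = 0.0458). Its XY WT libraries, at 8.86 and 10.7 CPM, were the lowest 2 of the 12, and the other 10 lay between 12.8 and 15.1 CPM. The difference between the sexes in these effects did not pass the test (adjusted p = 0.203 and 0.163). The -KTS KO call was lost without XY WT replicate 1 (0.42) or XY -KTS KO replicate 2 (0.45), and the +KTS KO call without XY WT replicate 1 (0.39) or XY +KTS KO replicate 1 (0.42). Pfkl, the liver-type form, passed in none of the 5 comparisons of the sums over all somatic cells.

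Pfkfb3 and Pfkfb4 make and break fructose 2,6-bisphosphate, the strongest activator of phosphofructokinase. Pfkfb3 stood at 3.41 and 3.67 CPM in XX WT and at 7.59 and 11.1 CPM in XX -KTS KO, a rise of 1.40 ± 0.27 (adjusted p = 0.00799) that was lost without XX WT replicate 1 or XX -KTS KO replicate 2. In XY it stood at 5.85 and 8.10 CPM in WT and at 9.11 and 14.1 CPM in -KTS KO, and the value of 0.73 ± 0.27 did not pass (adjusted p = 0.0745). Both sexes thus had mutant libraries above their WT libraries. Pfkfb4 passed in no mutant comparison of the somatic sums by edgeR, although it lay at 7.88 and 8.52 CPM in XX WT, at 3.67 and 3.74 CPM in XY WT and between 4.54 and 7.43 CPM in the 8 mutant libraries. This depended on the setting. By DESeq2 it passed in XX +KTS KO (lower) and XY +KTS KO (higher), and in supporting-like cells alone it passed in both XY mutants (higher). Without the clusters of shallow cells and those with little Nr5a1 and Gata4, edgeR called it in XY +KTS KO (higher). Its +KTS KO effect differed between the sexes by -1.33 ± 0.30 (adjusted p = 0.0406), since the values were -0.64 ± 0.21 in XX and 0.69 ± 0.21 in XY. The call held in 2 of the 8 fits that left out a library, those without either XY +KTS KO library (-0.94 and -1.64), and was lost with the replicate number as a block (-1.32 ± 0.30). It was 1 of 32 genes (3.12%, beside 3.81% of all genes, 2.03% upward and 1.78% downward). Hk2, the regulated hexokinase, and Gpi1, which converts glucose 6-phosphate to fructose 6-phosphate, passed in none of the 5 comparisons.

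The glucose carriers each passed in 1 mutant comparison. Slc2a1, the widespread basal carrier, fell by 0.86 ± 0.22 in XY +KTS KO (adjusted p = 0.0351), from 22.2 and 30.2 CPM to 14.3 and 14.6 CPM, and this call was lost in each fit that left out a library. Slc2a3, the high-affinity carrier, fell by 0.68 ± 0.21 in XY -KTS KO (adjusted p = 0.0421), from 3.83 and 3.44 CPM to 2.34 and 2.19 CPM, and this call was also lost in each such fit.

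**Figure D2:**
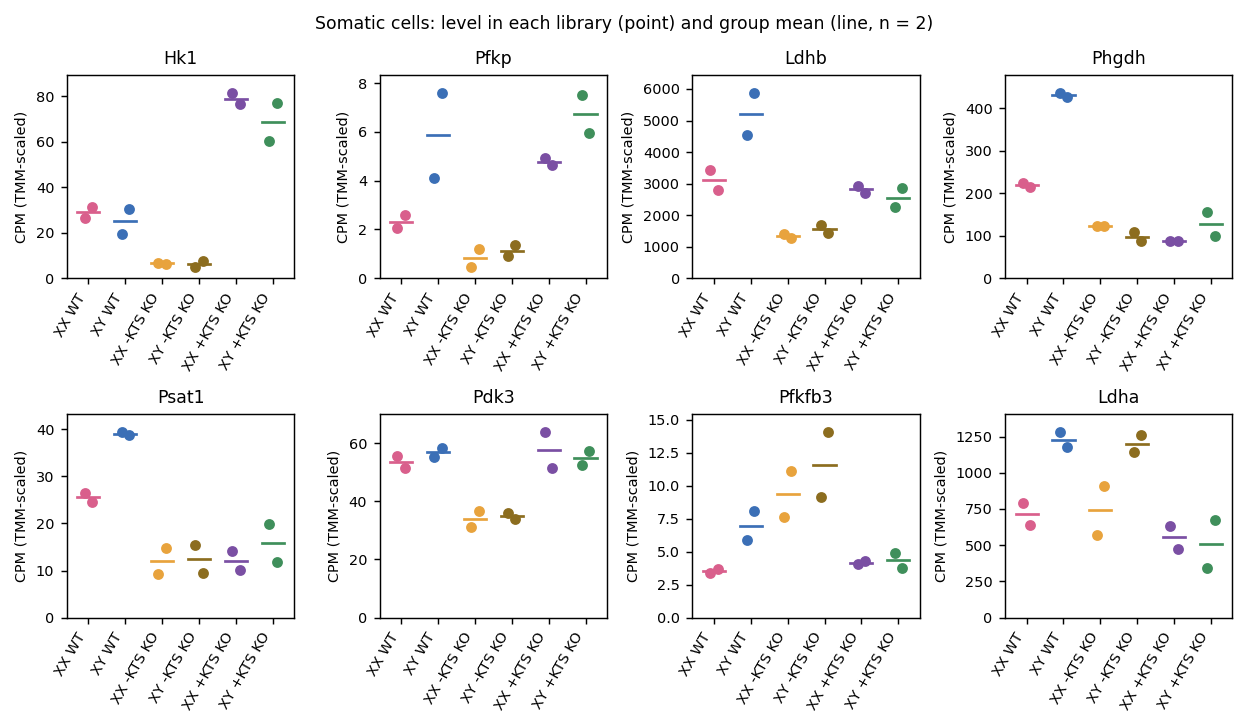
Level of 8 genes (panels, vertical axis in TMM-normalized CPM) in the somatic sums of the 6 groups (horizontal axis), with a point for each library and a line at the mean (n = 2). Hk1 lies below 8 CPM in the 4 -KTS KO libraries and above 60 CPM in the 4 +KTS KO libraries.

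The 9 genes of lower glycolysis, from aldolase to pyruvate kinase, were then read in -KTS KO. None of the 9 passed in XX -KTS KO (15.9% of all genes did), where their median was 0.01, and Eno2 passed in XY -KTS KO (23.4% of all genes did), where the median was 0.07. Gapdh, the dehydrogenase that yields NADH, stood at 2510 and 2219 CPM in XX WT and at 2436 and 2119 CPM in XX -KTS KO. In XY it stood at 3260 and 2760 CPM in WT and at 3201 and 2742 CPM in -KTS KO. Its changes were -0.05 ± 0.20 and -0.02 ± 0.20. Pkm, pyruvate kinase, changed by 0.11 ± 0.22 and 0.07 ± 0.22, and its libraries overlapped in both sexes. Eno2, the neuronal enolase, rose by 2.41 ± 0.48 in XY -KTS KO (adjusted p = 0.00634), but from 0.188 and 0.123 CPM to 0.941 and 0.733 CPM. Eno1, the widespread enolase, gave -0.54 ± 0.27 there (adjusted p = 0.181).

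In +KTS KO the lower genes differed between replicates of the XY group. Their median was -0.05 in XX +KTS KO, where none passed (beside 4.83% of all genes), and -0.64 in XY +KTS KO, where Pgk1 and Pgam1 passed (beside 12.1%). Pgk1, phosphoglycerate kinase, stood at 763 and 770 CPM in XY WT and at 259 and 482 CPM in XY +KTS KO replicates 1 and 2, a fall of 1.05 ± 0.25 (adjusted p = 0.0274). Pgam1, phosphoglycerate mutase, stood at 1199 and 1016 CPM in WT and at 515 and 798 CPM in the mutant, a fall of 0.75 ± 0.21 (adjusted p = 0.045). Replicate 1 was the lower in both. Summed over the 9 genes, that library stood at 4328 CPM, and the other 11 somatic sums lay between 5751 and 9170 CPM. In its germ cells the same sum stood at 2886 CPM, and the other 11 lay between 3826 and 6473 CPM. Immediate early and heat shock genes, known to rise during tissue dissociation, summed to 5131 CPM in its somatic cells and to between 2675 and 3765 CPM in the other 11, whereas in its germ cells their sum (3327 CPM) lay within the range of the others (3072 to 3593 CPM). The part of these differences in the result was not tested.

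Without that library, 3 of the 32 genes passed in XY +KTS KO (9.02% of all genes did), namely Hk1 (1.64 ± 0.27, adjusted p = 0.00861), Phgdh (-2.09 ± 0.16, adjusted p = 0.000341) and Psat1 (-1.72 ± 0.35, adjusted p = 0.0195). Without replicate 2 instead, 17 passed (16.6% of all genes). The values without replicate 1 were -0.65 ± 0.19 for Pgk1 (adjusted p = 0.0635) and -0.46 ± 0.19 for Pgam1 (adjusted p = 0.172). Both calls were also lost without either XY WT library. A fit without a library leaves 1 in its group, which is then assumed to vary like the others.

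**Figure D3:**
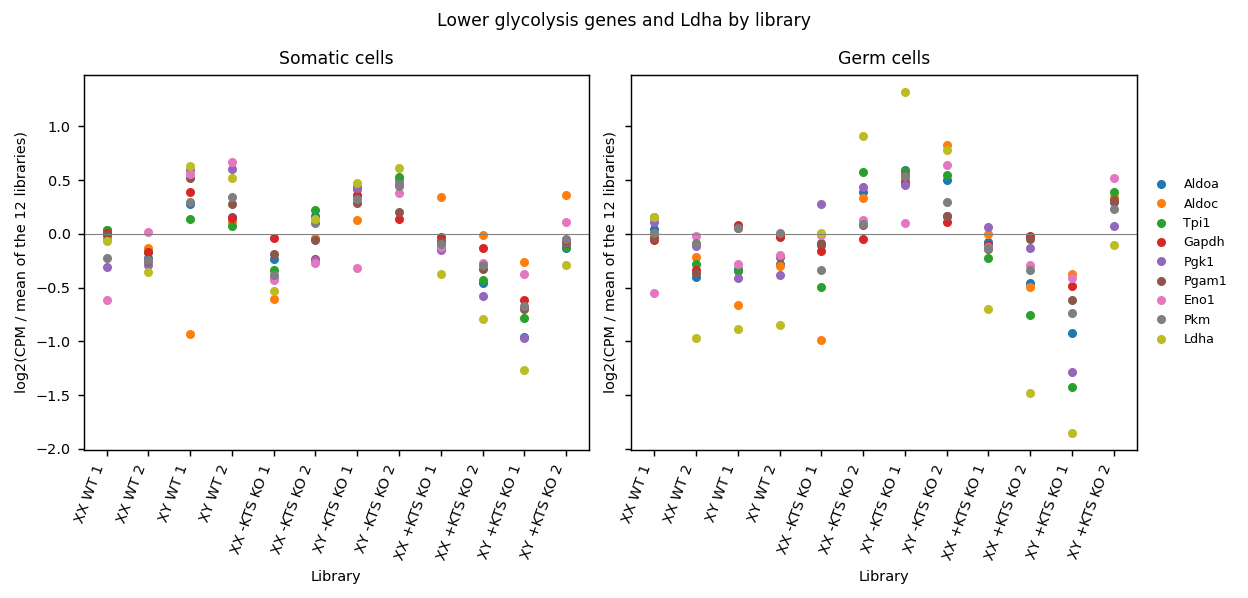
Level of 8 genes of lower glycolysis and Ldha relative to each gene's mean over the 12 libraries (log2 scale, vertical axis) in every library (horizontal axis), in somatic sums (one panel) and germ sums (the other). XY +KTS KO replicate 1 is the lowest library in both panels for Aldoa, Tpi1, Gapdh, Pgk1, Pgam1, Pkm and Ldha.

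Of the 6 genes that handle pyruvate and lactate, Ldhb fell in 3 of the 4 mutant comparisons. The gene (chr6:142490249-142507957, GRCm38, minus strand) encodes the heart-type lactate dehydrogenase subunit. It stood at 3440 and 2791 CPM in XX WT and at 1391 and 1270 CPM in XX -KTS KO. In XY it stood at 4538 and 5870 CPM in WT and at 1694 and 1426 CPM in -KTS KO. The 4 -KTS KO libraries lay below all 8 others. Ldhb fell by 1.23 ± 0.20 in XX (adjusted p = 0.00346) and by 1.74 ± 0.20 in XY (adjusted p = 0.000386), and both calls held in all 4 fits that left out a library. In +KTS KO, the XX libraries stood at 2927 and 2717 CPM, a change of -0.14 ± 0.20 (adjusted p = 0.791), and the XY libraries at 2251 and 2863 CPM, a fall of 1.02 ± 0.20 (adjusted p = 0.0112) that was lost without XY WT replicate 2 (-0.82) or XY +KTS KO replicate 1 (-0.85). These effects in XX and XY differed by 0.88 ± 0.28, which did not pass (adjusted p = 0.116).

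Ldha, the muscle-type subunit, did not follow Ldhb in -KTS KO, with changes of 0.05 ± 0.31 in XX and -0.03 ± 0.31 in XY (adjusted p = 0.942 and 0.951). It fell by 1.28 ± 0.32 in XY +KTS KO (adjusted p = 0.0311), from 1279 and 1178 CPM to 342 and 673 CPM, and without replicate 1 the value was -0.85 ± 0.29 (adjusted p = 0.107). Slc16a3, which exports lactate, fell by 1.16 ± 0.29 in XY +KTS KO (adjusted p = 0.0326), from 44.6 and 52.7 CPM to 18.98 and 24.5 CPM. Without replicate 1 it gave -0.97 ± 0.37 (adjusted p = 0.139), and both calls were also lost without either XY WT library. Slc16a1, the other monocarboxylate carrier, passed in none of the 5 comparisons.

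The pyruvate dehydrogenase kinases, which switch off the entry of pyruvate into the mitochondrial cycle, differed from each other. Pdk3 fell in both -KTS KO groups, by 0.66 ± 0.14 in XX (adjusted p = 0.0115) and by 0.71 ± 0.14 in XY (adjusted p = 0.00567). The 4 -KTS KO libraries stood between 31.3 and 36.6 CPM and the other 8 between 51.3 and 63.7 CPM, with no overlap. The XX call was lost without XX WT replicate 1 (-0.61) or XX -KTS KO replicate 1 (-0.55), and the XY call without XY -KTS KO replicate 2 (-0.67). Pdk1 lay higher in the -KTS KO libraries of each sex than in its WT libraries without passing, at 0.72 ± 0.28 in XX (adjusted p = 0.111) and 0.85 ± 0.28 in XY (adjusted p = 0.0516).

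The first enzyme of serine synthesis was lower in every mutant group. Phgdh (chr3:98313170-98339990, GRCm38, minus strand) oxidizes 3-phosphoglycerate. It stood at 224 and 214 CPM in XX WT (219 ± 7.27, SD, n = 2) and at 435.5 and 425.5 CPM in XY WT (430.5 ± 7.11). It stood at 123 and 122 CPM in XX -KTS KO and at 108 and 87.5 CPM in XY -KTS KO. In +KTS KO it stood at 88.3 and 87.6 CPM in XX and at 157 and 99.9 CPM in XY. All 8 mutant libraries lay below all 4 WT libraries. The fall was 0.84 ± 0.19 in XX -KTS KO (adjusted p = 0.017), 2.14 ± 0.20 in XY -KTS KO (adjusted p = 0.000111), 1.31 ± 0.19 in XX +KTS KO (adjusted p = 0.00696) and 1.75 ± 0.20 in XY +KTS KO (adjusted p = 0.0011). The -KTS KO effect was weaker in XX than in XY by 1.30 ± 0.27 (adjusted p = 0.0348), the only one of the 32 genes to pass this comparison of effects (3.12%, beside 2.91% of all genes, 1.74% upward and 1.17% downward), and 1 of the 8 fits that left out a library kept this call. The +KTS KO effects differed by 0.43 ± 0.27 (adjusted p = 0.421). Left-out libraries changed no call in XY, whereas in XX -KTS KO the call was lost in all 4 fits (-0.88 to -0.80), and in XX +KTS KO it held only without XX WT replicate 2 (range -1.35 to -1.28).

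Psat1, the aminotransferase that follows Phgdh, lay in the same direction. It stood at 26.6 and 24.6 CPM in XX WT, at 39.4 and 38.8 CPM in XY WT and between 9.24 and 19.9 CPM in the 8 mutant libraries, which did not overlap with WT. It fell by 1.10 ± 0.32 in XX -KTS KO (adjusted p = 0.0428), by 1.65 ± 0.32 in XY -KTS KO (adjusted p = 0.00545) and by 1.31 ± 0.32 in XY +KTS KO (adjusted p = 0.0276). The value of -1.08 ± 0.32 in XX +KTS KO did not pass (adjusted p = 0.09). The XX -KTS KO call was lost in each fit that left out a library, with values between -1.47 and -0.80, and the XY -KTS KO call held in all 4. The XY +KTS KO call held only without XY +KTS KO replicate 1, with values between -1.72 and -0.98. Psph, the phosphatase that completes serine, passed in none, with changes between -0.31 and 0.05 in the mutants and all 12 libraries between 23.9 and 38.3 CPM.

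Of the 4 one-carbon enzymes, 2 passed in XY -KTS KO (beside 23.4% of all genes) and none in the other 4 comparisons. Mthfd2, the mitochondrial methylene-tetrahydrofolate dehydrogenase, fell by 1.04 ± 0.19 (adjusted p = 0.00461), from 27.3 and 23.97 CPM to 13.9 and 11.1 CPM. Shmt1, the cytosolic serine hydroxymethyltransferase, fell by 0.61 ± 0.16 (adjusted p = 0.023), from 26.5 and 22.9 CPM to 16.4 and 16.04 CPM. The Mthfd2 call was lost without XY -KTS KO replicate 2 (-0.89), and the Shmt1 call held only without XY WT replicate 2. The effects in XX were -0.42 ± 0.19 and -0.21 ± 0.16, and the differences between the sexes did not pass (adjusted p = 0.274 and 0.407). In XY +KTS KO they gave -0.65 ± 0.19 and -0.55 ± 0.16, just outside the threshold (adjusted p = 0.0552 and 0.053). Shmt2, the mitochondrial form, passed in none. Aldh1l2, which oxidizes mitochondrial formyl-tetrahydrofolate, was measured at 0.0968 to 0.255 CPM, near the limit of detection.

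Between the sexes in WT, 4 genes were lower and 1 was higher in XX. Phgdh was lower by -0.98 ± 0.19 (adjusted p = 0.0104), Ldhb by -0.74 ± 0.20 (adjusted p = 0.0357), Pfkfb3 by -0.98 ± 0.27 (adjusted p = 0.0411) and the X-linked Pgk1 by -0.89 ± 0.25 (adjusted p = 0.0444), all as log2 XX over XY. Pfkfb4 was the exception, higher in XX by 1.15 ± 0.21 (adjusted p = 0.00784). Of the 5, Pfkfb4 kept its call in 3 of the 4 fits that left out a library, Phgdh in 1 and the others in none. Pfkp (-1.33 ± 0.42, adjusted p = 0.0676) and Mthfd2 (-0.62 ± 0.19, adjusted p = 0.0623) lay just outside the threshold.

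The changes were then read within cell classes, which holds part of the change in makeup aside. In XX WT, 2906 of 5286 and 2829 of 5654 somatic cells were supporting-like. In XX -KTS KO they were 908 of 4395 and 784 of 4092. In XY WT they were 2619 of 6728 and 2609 of 4671, and in XY -KTS KO 1189 of 5082 and 1122 of 4847. In +KTS KO they were 4033 of 7626 and 1787 of 4202 in XX, and 3294 of 6439 and 3080 of 6763 in XY. The part of these shares in the somatic sums was not tested. The clusters that form a class differed between groups. Supporting-like cells of XX WT lay mostly in cluster 3 (75.5% and 77.7%), those of XY WT in clusters 11 and 15, those of -KTS KO in cluster 6 (99.2% to 99.7%) and those of +KTS KO in cluster 0 or, in XY replicate 1, cluster 12. The 32 genes and the lists were left out of the clustering. Interstitial-like cells lay in clusters 1 and 13 in -KTS KO, mostly in clusters 4 and 5 in +KTS KO (in XY, 621 of the 1803 such cells of replicate 2 and 2 of the 1032 of replicate 1 lay in cluster 26), in clusters 4, 5 and 20 in XX WT and in clusters 5 and 9 in XY WT. Cluster 26 held little Nr5a1 and Gata4 (2.4 and 1.9 CPM). Coelomic-epithelium-like cells lay mostly in cluster 7 in -KTS KO, in clusters 8 and 16 in WT and in clusters 8 and 10 in +KTS KO. In XY +KTS KO replicate 1, 702 of the 1928 lay in cluster 24, whose cells were shallow.

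The Hk1 pattern was present within classes. In supporting-like cells it stood at 42.2 and 52.3 CPM in XX WT, at 36.0 and 47.1 CPM in XY WT, between 6.30 and 12.6 CPM in the -KTS KO libraries and between 114 and 146 CPM in the +KTS KO libraries. In interstitial-like cells the WT libraries lay between 7.23 and 12.4 CPM, -KTS KO between 5.6 and 6.99 CPM and +KTS KO between 23.3 and 29.0 CPM. The +KTS KO rise passed in all 3 classes tested and in both sexes: 1.61 ± 0.29 and 1.52 ± 0.29 in supporting-like cells of XX and XY (adjusted p = 0.00837 and 0.00496), 1.35 ± 0.18 and 1.32 ± 0.18 in interstitial-like cells (adjusted p = 0.0107 and 0.00388), and 1.67 ± 0.30 and 1.80 ± 0.41 in coelomic-epithelium-like cells (adjusted p = 0.017 and 0.0493). The -KTS KO effect in supporting-like cells was -2.30 ± 0.31 in XX and -2.10 ± 0.30 in XY (adjusted p = 0.000977 and 0.000671). In interstitial-like cells it passed in XX (-0.70 ± 0.18, adjusted p = 0.0425) and not in XY (-0.54 ± 0.18, adjusted p = 0.0629), and likewise in coelomic-epithelium-like cells (-1.18 ± 0.33, adjusted p = 0.0467, and -1.21 ± 0.47, adjusted p = 0.117). That class held only 133 and 256 cells in XY WT (1385084 and 2766045 UMIs), against 838 or more in every other library, so its XY values rest on the shallowest sums of the 3 classes. In endothelial cells, which were kept out of the somatic sums, Hk1 lay between 16.2 and 39.1 CPM over the 12 libraries, lowest in XY WT (16.2 and 23.7 CPM). That class also differed in makeup. In the XY WT libraries 221 of 406 and 112 of 267 of its cells lay in cluster 29, against 0 or 1 cell in each -KTS KO library.

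Phgdh differed between classes. In supporting-like cells it stood at 242 and 253 CPM in XX WT and at 795 and 639 CPM in XY WT, and at 42.3 and 24 CPM in XX +KTS KO, a fall of 2.85 ± 0.63 (adjusted p = 0.0212). In XX -KTS KO it stood at 60.7 and 83.1 CPM, and the value of -1.69 ± 0.61 did not pass (adjusted p = 0.0887). In XY -KTS KO it stood at 75.6 and 33.9 CPM, a fall of 3.69 ± 0.66 (adjusted p = 0.00223). In XY +KTS KO it stood at 213 and 38.8 CPM, a fall of 2.70 ± 0.63 (adjusted p = 0.0131) between replicates that lay far apart. In coelomic-epithelium-like cells all 12 libraries lay between 139 and 239 CPM. In interstitial-like cells the 8 mutant libraries (66.1 to 119 CPM) lay below the 4 WT libraries (136 to 193 CPM), and Phgdh passed in XY -KTS KO (-0.95 ± 0.24, adjusted p = 0.0218) and XY +KTS KO (-1.20 ± 0.24, adjusted p = 0.0154). The XX values of -0.43 ± 0.24 for -KTS KO and -1.12 ± 0.24 for +KTS KO did not pass (adjusted p = 0.315 and 0.0569). In endothelial-like cells it stood at 44.7 and 39 CPM in XX WT, at 86 and 64.7 CPM in XY WT and between 5.71 and 25.4 CPM in the mutants, and the part of free RNA in these values was not tested. Ldhb reached 9840 and 9760 CPM in supporting-like cells of XY WT and 3480 and 3180 CPM in those of XY -KTS KO, a fall of 1.53 ± 0.22 (adjusted p = 0.000665). In interstitial-like cells it stood at 878 and 973 CPM in XY WT and at 911 and 795 CPM in XY -KTS KO (-0.21 ± 0.19, adjusted p = 0.493), and at 1480 and 1210 CPM in XX WT and 777 and 889 CPM in XX -KTS KO (-0.63 ± 0.19, adjusted p = 0.0766). In coelomic-epithelium-like cells Ldhb stood at 616 and 947 CPM in XY WT, below the XY -KTS KO libraries (1190 and 957 CPM, 0.51 ± 0.24, adjusted p = 0.181) and the XY +KTS KO libraries (1040 and 1470 CPM, 0.73 ± 0.24, adjusted p = 0.155), and neither value passed.

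The count of genes that passed depended on the class. For XY -KTS KO, 20 of the 32 passed in supporting-like cells (28.8% of all genes did), 12 of them higher, among them Slc16a3 (1.95 ± 0.49), Pdk1 (1.64 ± 0.33), Slc2a1 (1.21 ± 0.29), Aldoa (1.14 ± 0.30) and Tpi1 (1.13 ± 0.29). These 5 genes did not pass in the sums over all somatic cells of that comparison. Gpi1, Pkm, Pfkl, Pfkfb3, Pfkfb4, Aldoc and Eno2 were also higher, and of them only Eno2 passed in those sums. Pfkl stood at 88.3 and 123 CPM in XY WT and at 158 and 248 CPM in XY -KTS KO. Ldha did not pass in either of 2 classes where it moved in opposite directions. It stood at 1040 and 1160 CPM in XY WT against 1850 and 2290 CPM in supporting-like cells, and at 1290 and 1300 CPM against 855 and 998 CPM in interstitial-like cells. In interstitial-like cells 8 passed (17.4% of all genes), 7 of them lower. In coelomic-epithelium-like cells 13 of 31 tested passed (13.8% of all genes), 8 of them higher, including the same 5 genes with values from 0.82 (Aldoa) to 1.31 (Pdk1), and Mthfd2 fell by 2.02 ± 0.25. The XY WT sums of that class came from 133 and 256 cells, with 14 and 40 UMIs of Pdk1 and 818 and 1985 of Aldoa. For XX -KTS KO, 6 passed in supporting-like cells (16.2%), with Pfkfb3 at 2.41 ± 0.40 and Slc16a1 at -2.00 ± 0.35, 2 in interstitial-like cells (7.46%), Hk1 and Psat1, and 6 in coelomic-epithelium-like cells (8.56%), 5 of them lower. For XY +KTS KO, 18 passed in interstitial-like cells (9.61%), 17 of them lower, including Pgk1 (-1.64 ± 0.22), Ldha (-1.85 ± 0.29) and Slc16a3 (-2.02 ± 0.30), whereas Hk1 alone passed in coelomic-epithelium-like cells (1.67%) and in supporting-like cells 8 passed (22.4%) with values for those 3 of -0.79 ± 0.30, -1.09 ± 0.37 and -0.99 ± 0.49 that did not pass. For XX +KTS KO, 2 passed in supporting-like cells (8.48%), Hk1 and Phgdh, and Hk1 alone in interstitial-like (1.15%) and coelomic-epithelium-like cells (2%).

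**Figure D4:**
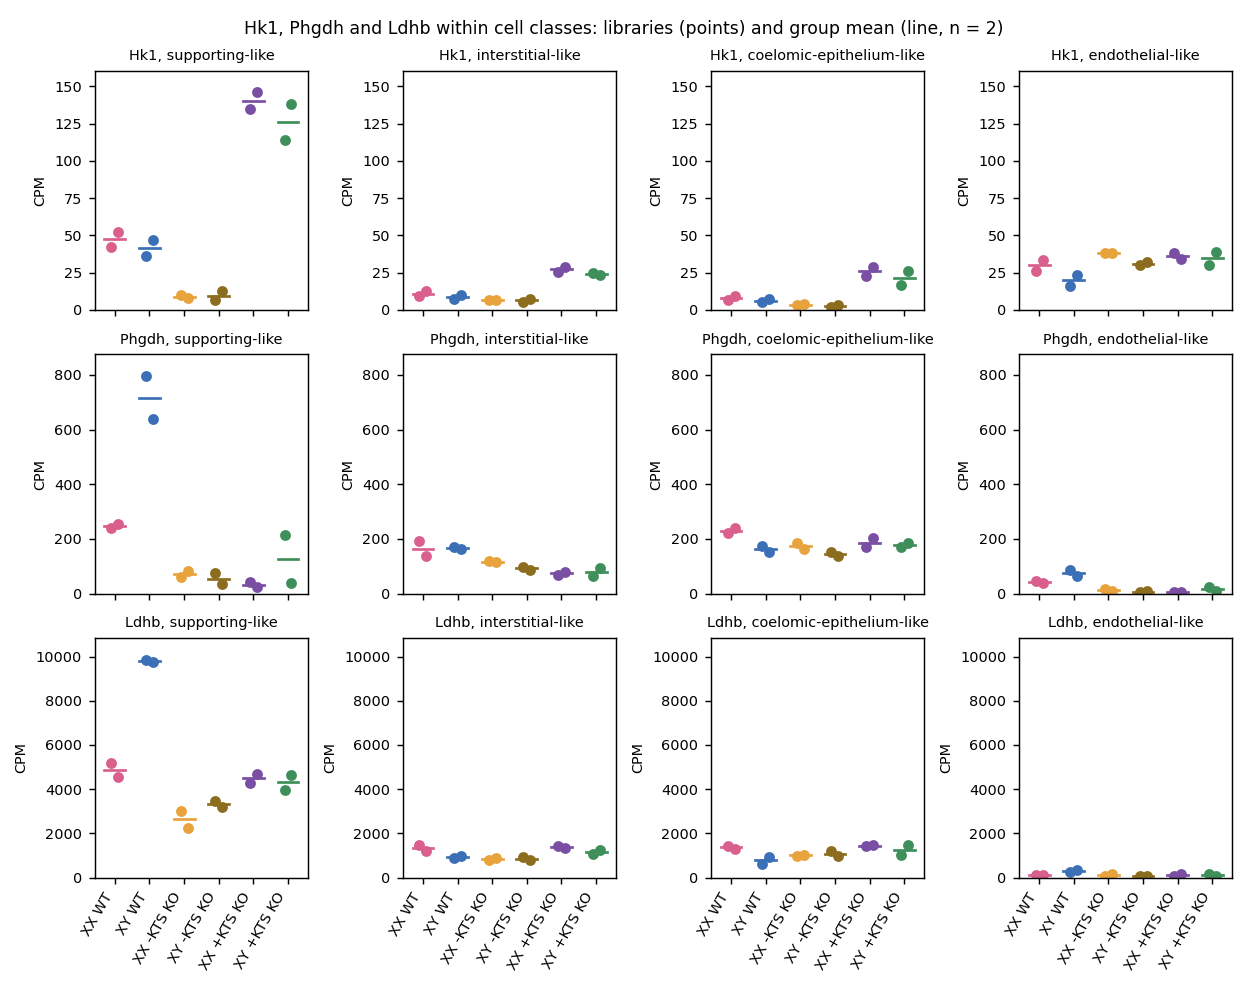
Level in CPM (vertical axis) of Hk1, Phgdh and Ldhb in the 6 groups (horizontal axis) within supporting-like, interstitial-like, coelomic-epithelium-like and endothelial-like cells, with a point for each library and a line at the mean (n = 2). Hk1 is highest in the +KTS KO libraries in the first 3 classes, and Phgdh and Ldhb are highest in supporting-like cells of XY WT.

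The germ cells of the same libraries carried these genes at other levels. Ratios were taken within each library as log2 of germ over somatic CPM (0.5 CPM added to each), with no test, since the classes came from clustering. Over the 12 libraries the median ratio had a median of -0.43 across the 32 genes and of -0.10 across the 13122 genes that passed the filter in both kinds of cell. In germ cells 8 of the 32 were higher in all 12 libraries (29.9% of the 13122 were) and 16 were lower in all 12 (36.9% of the 13122 were). The 8 include Aldh1l2 and the 16 include Eno2, both near the floor. Eno2 did not pass the filter in germ cells (0 to 0.0778 CPM). Of the serine and one-carbon genes, Psat1, Shmt1, Mthfd2 and Aldh1l2 were among the higher ones, and Psph (median ratio 0.19) and Shmt2 (-0.35) were mixed. Shmt1 lay between 82.7 and 139 CPM in germ and between 13.9 and 24.5 CPM in somatic sums (median ratio 2.53), Psat1 between 39.0 and 78.8 CPM against 9 to 39.5 CPM (1.78), and Mthfd2 between 26.4 and 51.0 CPM against 11.2 to 25.3 CPM (1.23). Phgdh went the other way, between 9.10 and 28.9 CPM in germ against 85.6 to 433 CPM in somatic sums (median ratio -2.93).

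Some enzymes and carriers that share a step lay on different sides of this ratio and others on the same side. Slc2a3 was higher in germ cells (29.1 to 43.2 CPM against 2.21 to 4.14 CPM, median ratio 3.56), whereas Slc2a1 was mixed (-0.26). Pfkp was higher in germ cells (21.1 to 68.7 CPM against 0.430 to 8.23 CPM, median ratio 3.41), whereas Pfkl (-1.69) and Pfkm (-0.91) were lower in all 12 libraries. Pdk1 was higher (1.09) and Pdk3 mixed (0.08). Slc16a1 was higher (0.92) and Slc16a3 lower (-2.70). Ldhb (257 to 592 CPM against 1252 to 5971 CPM, median ratio -3.04) and Ldha (-2.84) were both lower, as was Tpi1, triosephosphate isomerase (-2.89). Of the 9 genes of lower glycolysis, 8 were lower in all 12 libraries and Pkm was mixed (0.09). Hk1 was mixed, higher in germ cells in 6 of the 12 libraries, with ratios from -2.18 to 2.35. RNA free in the droplets can add somatic transcripts to germ barcodes (Wt1 reached up to 12.5 CPM in germ sums), and its part in the germ levels was not tested.

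**Figure D5:**
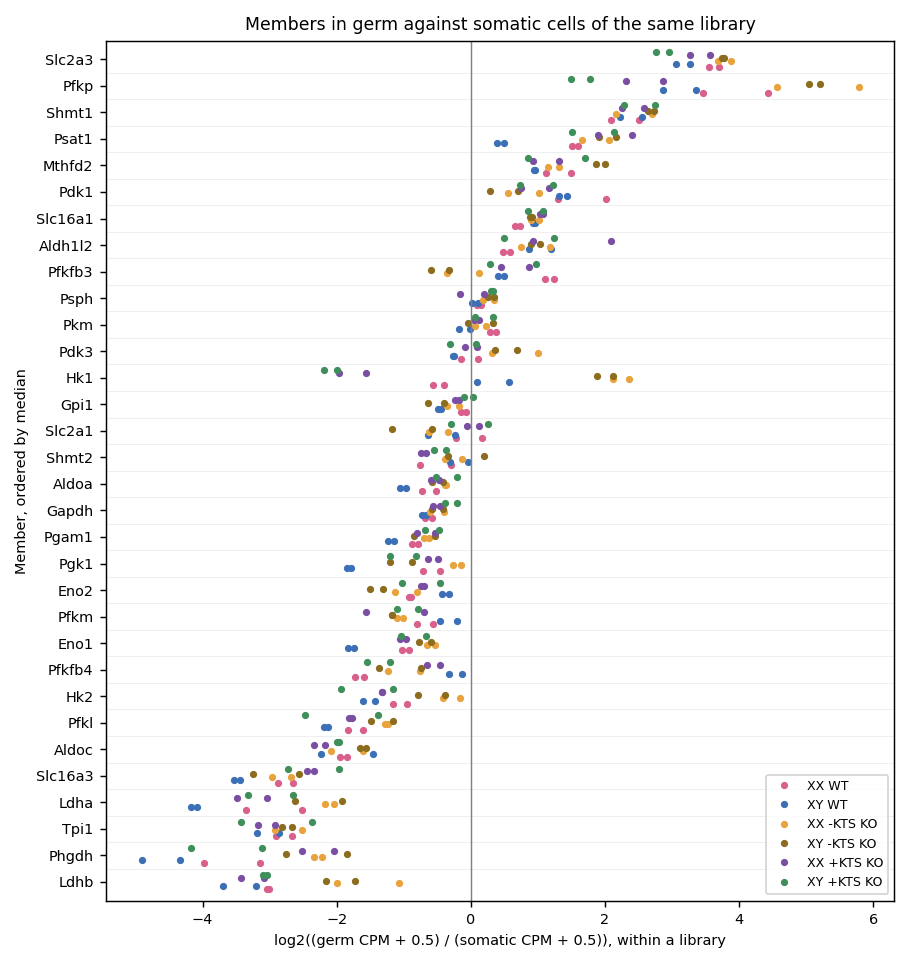
Log2 ratio of germ over somatic CPM (horizontal axis) for the 32 genes (vertical axis, ordered by median), with a point for each of the 12 libraries coloured by group. The 8 genes from Slc2a3 to Aldh1l2 lie above 0 in every library, and the points of Hk1 separate by genotype.

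In germ cells, none of the 31 genes tested (Eno2 was too low) passed in any of the 5 comparisons by edgeR. Of all genes, 0.0728% passed in XX -KTS KO and as many in XX +KTS KO (0.0582% higher and 0.0146% lower in each), 0% in XY -KTS KO and in XY +KTS KO, and 0.794% between the sexes in WT (0.379% higher and 0.415% lower). At an unadjusted p under 0.05 the list gave 5, 8, 3, 3 and 4 genes for XX -KTS KO, XY -KTS KO, XX +KTS KO, XY +KTS KO and XX WT against XY WT, beside 11.1%, 5.88%, 8.55%, 8.07% and 11% of all genes. DESeq2 called Psat1 in XX -KTS KO (0.968% of all genes) and Pfkl in XY -KTS KO (0.248%), and no member in the other 3. Without the low-count filter, edgeR called 3 genes in XX -KTS KO (Psat1, Ldha and Hk2, beside 2.19% of all genes), 2 in XX +KTS KO (Ldha and Pdk1, 1.55%), 6 in XY -KTS KO (Pgk1, Tpi1, Aldoa, Slc16a3, Pfkl and Ldha, all higher, 1.07%), 2 in XY +KTS KO (Pfkp and Hk1, 1.54%) and 0 between the sexes (2.79%). Ldha in XY -KTS KO had the widest value, 1.94 ± 0.53 (adjusted p = 0.509), at 305 and 209 CPM against 65.8 and 67.5 CPM in XY WT. Hk1 in germ cells stood between 14.7 and 35.1 CPM over all 12 libraries, at 0.67 ± 0.21 in XX -KTS KO (adjusted p = 0.279) and at -0.88 ± 0.22 in XY +KTS KO (adjusted p = 0.404).

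The test of the effect in germ cells minus the effect in somatic cells, within libraries, called 7 of 32 genes in XX -KTS KO (21.9%, beside 6.27% of all genes, 4.53% higher and 1.74% lower), 16 in XY -KTS KO (50%, beside 8.72%, 5.61% higher and 3.11% lower), 1 in XX +KTS KO (3.12%, beside 1.4%, 0.707% higher and 0.696% lower) and 9 in XY +KTS KO (28.1%, beside 3.61%, 2.12% higher and 1.5% lower). When each library of the groups compared was left out in turn, 4 were called in XX -KTS KO each time (beside 1.84% to 5.93% of all genes), 8 to 10 in XY -KTS KO (2.78% to 4.39%), 0 to 1 in XX +KTS KO (0.399% to 1.01%) and 3 to 10 in XY +KTS KO (1.07% to 3.49%). Hk1 was called in all 4 comparisons. It differed by 2.87 ± 0.22 in XX -KTS KO (adjusted p = 1.43e-05), by 1.79 ± 0.22 in XY -KTS KO (adjusted p = 0.000193), by -1.33 ± 0.22 in XX +KTS KO (adjusted p = 0.00728) and by -2.40 ± 0.22 in XY +KTS KO (adjusted p = 6.86e-05). The somatic change of Hk1 was therefore not matched by its germ cells in either mutant. Ldhb differed by 1.55 ± 0.28 in both -KTS KO comparisons, and Pfkp by 1.70 ± 0.41 and 2.46 ± 0.39. Without XX -KTS KO replicate 2, the library with many shallow germ cells, 4 of the 7 XX -KTS KO calls held, with 2.63 for Hk1, 2.57 for Pfkp, 0.97 for Ldhb and 0.95 for Pdk3, and those of Phgdh (1.29), Hk2 (0.86) and Pfkfb3 (-1.21) were lost.

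Neighbouring pathways, from lists written for this comparison, were read in the somatic sums. Their counts stand beside shares of all genes higher and lower of 6.57% and 9.35% (XX -KTS KO), 11.1% and 12.4% (XY -KTS KO), 2.25% and 2.59% (XX +KTS KO), or 5.89% and 6.23% (XY +KTS KO), and nothing is read from a list's count alone. Of 52 other genes of glucose, pyruvate, pentose phosphate and folate metabolism, 1 rose and 6 fell in XX -KTS KO, 6 rose and 10 fell in XY -KTS KO, 1 rose and 3 fell in XX +KTS KO, and 1 rose and 1 fell in XY +KTS KO, with medians between -0.23 and 0.01. Adpgk, the ADP-dependent glucokinase, fell by 1.01 ± 0.16 in XX -KTS KO (adjusted p = 0.00276), and Slc25a32, the mitochondrial folate carrier, fell by 0.92 ± 0.21 (adjusted p = 0.0153). Eno3, the muscle enolase, rose by 1.93 ± 0.22 in XY -KTS KO (adjusted p = 0.000384), from 11.6 and 11.1 CPM to 42.5 and 43.7 CPM, and fell by 1.23 ± 0.22 in XX +KTS KO (adjusted p = 0.0142), from 23.5 and 22.6 CPM to 8.79 and 10.8 CPM. In WT it was higher in XX than in XY by 1.03 ± 0.22 (adjusted p = 0.0145).

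The 16 listed genes of the tricarboxylic acid cycle had medians of -0.23 and -0.16 in XX and XY -KTS KO. In XX and XY +KTS KO their medians were 0.01 and -0.18. Of the 16, 2 fell in each -KTS KO comparison (beside 9.35% and 12.4% of all genes) and none passed in +KTS KO. They were Cs, citrate synthase, by 0.58 ± 0.12 in XX and 0.53 ± 0.12 in XY (adjusted p = 0.00985 and 0.00972), and Idh3a, a subunit of isocitrate dehydrogenase, by 1.05 ± 0.17 and 0.75 ± 0.17 (adjusted p = 0.0033 and 0.0105). Of 22 genes known to respond to hypoxia, 2 rose and 1 fell in XX -KTS KO, 6 rose and 1 fell in XY -KTS KO, 2 rose and 2 fell in XX +KTS KO, and 1 rose and 3 fell in XY +KTS KO. The medians of the 22 were 0.09, -0.14, 0.14 and -0.31 in that order (all genes 0.00 to 0.05). In XY -KTS KO the median thus lay below that of all genes, although more of the 22 passed upward than downward. Kdm3a, a histone demethylase, rose by 1.39 ± 0.22 and Bnip3, a mitophagy receptor, by 1.53 ± 0.32 in XY -KTS KO (adjusted p = 0.00192 and 0.00768). Car12, a membrane-bound carbonic anhydrase, fell there by 2.37 ± 0.48 (adjusted p = 0.00685), from 2.25 and 3.44 CPM to 0.485 and 0.611 CPM. It rose by 1.78 ± 0.50 in XX -KTS KO and by 2.08 ± 0.50 in XX +KTS KO (adjusted p = 0.0405 and 0.0457), from 0.163 and 0.35 CPM. P4ha1, a collagen prolyl hydroxylase, fell by 1.05 ± 0.18 in XY +KTS KO (adjusted p = 0.00637). Adm, adrenomedullin, fell by 1.93 ± 0.20 in XX -KTS KO (adjusted p = 0.000416) and rose by 1.22 ± 0.19 in XY +KTS KO (adjusted p = 0.00461). In WT, Adm was higher in XX than in XY by 2.24 ± 0.20 (adjusted p = 0.000208). Car12 was lower in XX WT by 3.44 ± 0.51 (adjusted p = 0.00294).

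Genes driven by ATF4, the regulator known to induce Phgdh and Psat1 when amino acids are short, were counted in the same way. Of 30 tested, 1 rose and 5 fell in XX -KTS KO, 4 rose and 3 fell in XY -KTS KO, 1 fell in XX +KTS KO, and 1 rose and 3 fell in XY +KTS KO, with medians between -0.19 and -0.02 (all genes 0.00 to 0.05). Slc7a11, the cystine carrier, fell by 3.06 ± 0.42 in XX -KTS KO (adjusted p = 0.00164), from 10.2 and 8.78 CPM to 1.18 and 1.096 CPM. In XY +KTS KO it rose by 3.16 ± 0.44 (adjusted p = 0.0027), from 0.434 and 0.646 CPM to 6.66 and 3.03 CPM. In WT it was higher in XX than in XY by 4.14 ± 0.45 (adjusted p = 0.00065). Nupr1, a stress-induced nuclear protein, rose in both -KTS KO groups, by 2.63 ± 0.41 and 3.46 ± 0.43 (adjusted p = 0.00282 and 0.000537), and fell by 2.39 ± 0.47 in XY +KTS KO (adjusted p = 0.0117). In XY -KTS KO, Slc7a5, an amino acid carrier, fell by 2.11 ± 0.23 and Stc2, stanniocalcin 2, by 1.85 ± 0.44 (adjusted p = 0.00033 and 0.0148). Both were lower in XX WT than in XY WT, by 0.80 ± 0.22 and 2.66 ± 0.46 (adjusted p = 0.0428 and 0.00584). Cth, cystathionine gamma-lyase, fell in XX -KTS KO by 1.43 ± 0.21 and in XX +KTS KO by 1.23 ± 0.21 (adjusted p = 0.00205 and 0.0116). Of 22 immediate early and heat shock genes, none rose and 3 fell in XX -KTS KO, 2 rose and 2 fell in XY -KTS KO, none passed in XX +KTS KO and 1 rose in XY +KTS KO (Hspa1a, 1.38 ± 0.24, adjusted p = 0.00679). Their medians were 0.19, -0.16, 0.38 and 0.86 in that order. In XY +KTS KO they summed to 5131 CPM in replicate 1 and to 2889 CPM in replicate 2. In germ cells, where under 1% of all genes passed in each comparison, no gene of these lists passed by edgeR.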

How the data were processed

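The authors deposited, for each of the 12 libraries, a matrix of UMI counts per gene and barcode. Per the submitters' processing notes, Cell Ranger 6.0 and the mm10 genome were used, and the annotation release is not given in the sources used here. The labels and the study's methods name different versions of the 3′ kit. A barcode needed 1000 or more detected genes and no more than 10% of its UMIs from mitochondrial genes (83513 of 103730 passed), and the barcodes with the highest Scrublet scores, 0.8% per 1000 barcodes, were removed (7447, scored before that filter, so that some had already failed it, which left 77000 cells), because the caller's own threshold marked 3 or fewer in 9 libraries. Cells were clustered after sctransform 0.4.2 in Seurat 5.3.0 (3000 variable genes, 50 principal components, 20 neighbours, resolution 0.8, seed 1), without the 32 genes and the lists, and classes were named by markers.

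UMI counts were summed per library over somatic or germ cells and tested with edgeR 4.0.16 (TMM, filterByExpr, quasi-likelihood F test, Benjamini-Hochberg over all genes tested) in R 4.3.3, with the 6 groups in 1 fit that shares its estimate of spread. The scripts were tested on simulated data. Standard errors were derived from the size of the fold change and its F statistic. Levels are CPM after TMM, except class levels and germ ratios, which use plain library totals. With 2 libraries per group, p-values measure only the spread between these libraries. Same-numbered libraries did not deviate together (correlations from -0.202 to 0.172 in somatic sums and from -0.244 to 0.285 in germ sums), so numbers were not treated as pairs. Alternatives were DESeq2 1.42.0, RLE size factors in place of TMM, no filter, a replicate block and doublets kept. Others were all kept cells, single classes, classes set by marker UMIs alone, trimmed clusters and each library left out. Every one of the 32 genes was named. From the other lists, at most 3 genes per list and comparison were eligible, those with the lowest adjusted p under 0.05 whose mutant libraries lay on 1 side of both WT libraries. One gene that this rule names is not reported here. The genes and lists were chosen with earlier results of these data known. Promoters were read from RefSeq tables for GRCm38.p6.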

Additional observations from a re-analysis of the deposited data

Results flagged for a closer look

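Each value here is a difference between the effects of a mutant in 2 kinds of sample, past an adjusted p of 0.05 (edgeR). The first kind is the effect in germ cells minus the effect in somatic cells of the same libraries, on the log2 scale. In XX -KTS KO it was 2.87 for Hk1, 1.70 for Pfkp, 1.55 for Ldhb, 1.35 for Phgdh, 0.84 for Hk2, 0.72 for Pdk3 and -1.36 for Pfkfb3. In XY -KTS KO the upper glycolysis genes gave 2.46 for Pfkp, 1.79 for Hk1, 1.01 for Hk2 and 0.89 for Pfkl. The lower glycolysis genes there gave 1.15 for Eno1, 0.82 for Pgk1, 0.56 for Aldoa and 0.55 for Pgam1. Serine and one-carbon genes gave 2.39 for Phgdh, 1.68 for Psat1 and 1.06 for Mthfd2. The remaining genes called there were Ldha at 1.91, Ldhb at 1.55, Pdk3 at 0.84, Slc2a3 at 0.74 and Pdk1 at -0.86. In XX +KTS KO the difference was -1.33 for Hk1. In XY +KTS KO it was 1.45 for Psat1, 1.22 for Slc16a3, 1.20 for Ldha, 0.98 for Eno1, 0.86 for Pgk1, 0.70 for Aldoa, 0.67 for Pgam1, -1.47 for Pfkp and -2.40 for Hk1. With each library of the groups compared left out in turn, the calls that held in all 4 fits were Hk1 and Ldhb for XX -KTS KO, Hk1, Pfkp, Phgdh, Psat1, Ldha, Ldhb and Eno1 for XY -KTS KO, and Hk1, Psat1 and Eno1 for XY +KTS KO. The calls lost in all 4 were Hk2 for XX -KTS KO, Slc2a3, Pdk1, Pfkl and Mthfd2 for XY -KTS KO, and Pfkp for XY +KTS KO. The others held in 1 to 3 of the 4. For 3 genes the value moved by over 1.5 times, namely Pfkp in XX -KTS KO (0.99 without XX -KTS KO replicate 1, 2.57 without replicate 2), Ldhb there (0.97 without replicate 2) and Slc16a3 in XY +KTS KO (0.81 without XY +KTS KO replicate 2).

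The second kind is the effect in XX minus the effect in XY somatic cells. It was 1.30 for Phgdh in -KTS KO and -1.33 for Pfkfb4 in +KTS KO. Each rests on groups of 2 libraries.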

How the results depend on the processing

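Depth limits the coelomic-epithelium-like sums of XY WT (1385084 and 2766045 UMIs), the germ sums (down to 8461622 UMIs) and genes below about 1 CPM such as Eno2 and Aldh1l2. Sums over single classes, except interstitial-like cells in the mutant comparisons, and trimmed clusters were chosen after seeing the data. The number of the 32 genes called in somatic sums moved by over 1.5 times in these settings, given with the percentage of all genes called. For XX -KTS KO (7) it was 2 with all kept cells (7.65%) and 2 in interstitial-like cells (7.46%). For XX +KTS KO (2) it was 4 by DESeq2 (8.58%) and 1 in interstitial-like (1.15%) or coelomic-epithelium-like cells (2%). For XY -KTS KO (11) it was 5 with all kept cells (12.7%) and 20 in supporting-like cells (28.8%). For XY +KTS KO (10) it was 17 by DESeq2 (17.9%), 6 with all kept cells (9.24%), 18 in interstitial-like (9.61%) and 1 in coelomic-epithelium-like cells (1.67%). Between the sexes in WT (5) it was 9 without a filter (10.1%), 10 by DESeq2 (16.9%), 10 with doublets kept (15.8%), 2 with all kept cells (6.3%), 8 in supporting-like (20.7%), 1 in interstitial-like (2.23%) and 0 in coelomic-epithelium-like cells (1.7%). For the sex difference of the effect (1 for each mutant) it was 2 by DESeq2 for -KTS KO (7.39%) and +KTS KO (8.48%), 0 for each with all kept cells (0.783% and 1.31%), in interstitial-like cells (0.0655% and 0.367%) and in coelomic-epithelium-like cells (0% and 0.0271%), and for +KTS KO 2 in supporting-like cells (9.18%) and 0 with the replicate block (2.87%). For -KTS KO it was 2 without either XY +KTS KO library. The block moved no other count by over 1.5 times, but lost the calls of Pfkm (0.53) and Pgam1 (-0.75) in XY +KTS KO, of Ldhb (-0.74) and Pgk1 (-0.89) between the sexes and of Pfkfb4 (-1.32) for the sex difference of +KTS KO. In germ cells (0) it was 3, 2, 6 and 2 without a filter for XX -KTS KO, XX +KTS KO, XY -KTS KO and XY +KTS KO (2.19%, 1.55%, 1.07% and 1.54%), and 1 by DESeq2 in XX -KTS KO (0.968%) and XY -KTS KO (0.248%). For germ minus somatic effects the count was 11 without a filter (8.17%) and 3 with doublets kept (5.2%) in XX -KTS KO (7), 5 without a filter (3.95%) and 2 with trimmed clusters (2%) in XX +KTS KO (1), and 14 without a filter (5.52%) in XY +KTS KO (9).

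With each library of the groups compared left out in turn, counts ranged from 2 to 4 in XX -KTS KO (6.03% to 7.66% of all genes), 0 to 1 in XX +KTS KO (0.72% to 1.51%), 6 (without XY -KTS KO replicate 2) to 12 in XY -KTS KO (11.5% to 14.4%), 3 to 17 in XY +KTS KO (3.8% to 16.6%; 3 without XY WT replicate 1, XY WT replicate 2 or XY +KTS KO replicate 1), and 0 to 3 between the sexes (4.26% to 10.4%). They ranged from 0 to 1 for the sex difference of -KTS KO (0.509% to 3.63%) and from 0 to 6 for that of +KTS KO (0.895% to 8.27%; 6 without XY +KTS KO replicate 2), and were 0 in germ cells throughout (0% to 0.306%). For germ minus somatic effects they ranged from 4 to 4 in XX -KTS KO (1.84% to 5.93%), 0 to 1 in XX +KTS KO (0.399% to 1.01%), 8 to 10 in XY -KTS KO (2.78% to 4.39%) and 3 to 10 in XY +KTS KO (1.07% to 3.49%).

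Direction reversed for Pfkp in XX -KTS KO with all kept cells (0.18). In coelomic-epithelium-like cells it reversed for Ldhb in XY -KTS KO (0.51), for Ldhb (0.73), Slc16a3 (0.23), Phgdh (0.16) and Pgam1 (0.01) in XY +KTS KO, and for Ldhb (0.83), Phgdh (0.53) and Pfkfb3 (0.19) between the sexes. In interstitial-like cells it reversed for Ldhb in XY +KTS KO (0.16) and between the sexes (0.43). The cause was not tested. Of 880 values of single genes under an alternative, 636 kept their direction and call, 233 lost the call and 11 reversed. These totals pool settings that acted unequally. With RLE size factors 68 of 70 values kept the call, whereas fits that left out a library lost more calls than they kept. Over all genes, 858 were called in XX +KTS KO, 1523 by DESeq2 and 1328 without a filter. For the sex difference, 516, 1311 and 920 were called for -KTS KO, and 676, 1505 and 1203 for +KTS KO.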
